A study of Homo sapiens with 4 samples.

Results

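The endothelin genes were examined in H1-derived cells collected 2 days into hematopoietic differentiation, in the presence of IWP2 or of its solvent. The set held 6 genes of the 56595 gene symbols in the expression table, namely EDN1, EDN2 and EDN3 for the ligands, ECE1 for the converting enzyme, and EDNRA and EDNRB for the receptors. They were chosen by their symbols as one ligand-receptor system, and the system itself was selected on the higher EDN1 level with IWP2 in these same libraries, so the IWP2 difference of these 6 genes is given as a description without a p-value. H1 is an established human embryonic stem cell line, and all values come from that 1 line. There were 2 DMSO libraries (solvent control) and 2 IWP2 libraries, all from cells kept for 2 days in Custom mTeSR1 medium with 40 ng/ml activin A and 50 ng/ml BMP4 per the labels, while the study's methods give these doses the other way round. IWP2 is a small-molecule inhibitor of Wnt secretion, and the study used it to ask how far mesenchymal gene expression at the onset of differentiation depends on Wnt signaling.

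Endothelins are short secreted peptides that are cut out of longer precursors, first by furin-type proteases and then by endothelin-converting enzymes. The mature peptide binds the G protein-coupled receptors EDNRA and EDNRB, where EDNRA prefers endothelin-1 and endothelin-2 and EDNRB takes all endothelins alike. Endothelin-1 is best known as a vasoconstrictor made by endothelium, and in the embryo EDN1 with EDNRA patterns the pharyngeal arches while EDN3 with EDNRB serves neural crest derivatives.

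The coding stretches of the mature peptides are shown first, because the ligands differ far more in level than in sequence. They were read from GENCODE 29 transcripts (GRCh38), located by the cysteine spacing shared by all endothelins, and the capitals mark the 4 cysteine codons that form the peptide's disulfide bridges.
EDN1: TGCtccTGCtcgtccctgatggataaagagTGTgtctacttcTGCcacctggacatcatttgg
EDN2: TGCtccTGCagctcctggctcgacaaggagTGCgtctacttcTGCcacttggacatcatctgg
EDN3: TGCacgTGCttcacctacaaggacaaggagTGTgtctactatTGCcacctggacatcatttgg
Each stretch lies within exon 2 of 5, at chr6:12292433-12292495 on the plus strand for EDN1, chr1:41484061-41484123 on the minus strand for EDN2 and chr20:59301646-59301708 on the plus strand for EDN3. EDN1 and EDN2 shared 51 of 63 bases, and 19 of 21 codons encoded the same residue. EDN1 and EDN3 shared 50 of 63 bases and 15 of 21 residues. Within their precursors the stretches covered codons 53 to 73 of 212 in EDN1, 49 to 69 of 178 in EDN2 and 97 to 117 of 219 in EDN3.

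The expression table gave FPKM values (fragments scaled by transcript length and by library size), which summed to between 616418 and 653850 in the 4 libraries, and the read depth behind them is unknown. For tests, 15957 genes with a mean of at least 0.5 FPKM were compared on the log2(FPKM + 1) scale, and a gene was called when its adjusted p was below 0.05 (limma, Benjamini-Hochberg). On that scale the fold change of low genes is understated. Nothing in the labels says that the libraries came from separate cultures, so p-values measure only the spread between these libraries. The inhibitor was checked on 20 Wnt target genes, of which 13 of the 19 tested fell and 0 rose, where 7.39% of all tested genes were called lower and 5.86% higher. SP5, a Wnt-induced transcription factor, stood at 53.2 and 47.0 FPKM with DMSO and at 0.379 and 0.363 FPKM with IWP2. With 1 library left out, 8 of these Wnt targets were called without DMSO library 1 or 2 and 5 without IWP2 library 1 or 2.

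EDN1 (ENSG00000078401.6, GRCh38 chr6:12290363-12297194, plus strand) was the main endothelin transcript of these cells. Its FPKM was 6.43 and 2.18 in DMSO libraries 1 and 2, and 15.7 and 16.6 in IWP2 libraries 1 and 2. Both IWP2 libraries lay above both DMSO libraries, and the lower IWP2 value was 2.44 times the higher DMSO value. The means were 4.31 ± 3.004 FPKM with DMSO and 16.1 ± 0.639 FPKM with IWP2 (SD, n = 2 each), a 3.75-fold difference in mean FPKM. On the log2(FPKM + 1) scale the difference was 1.82 with a standard error of 0.40, and 98 of the 15957 tested genes had a larger rise. This difference was 2.43 without DMSO library 1 and 1.21 without DMSO library 2.

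**Figure D1:**
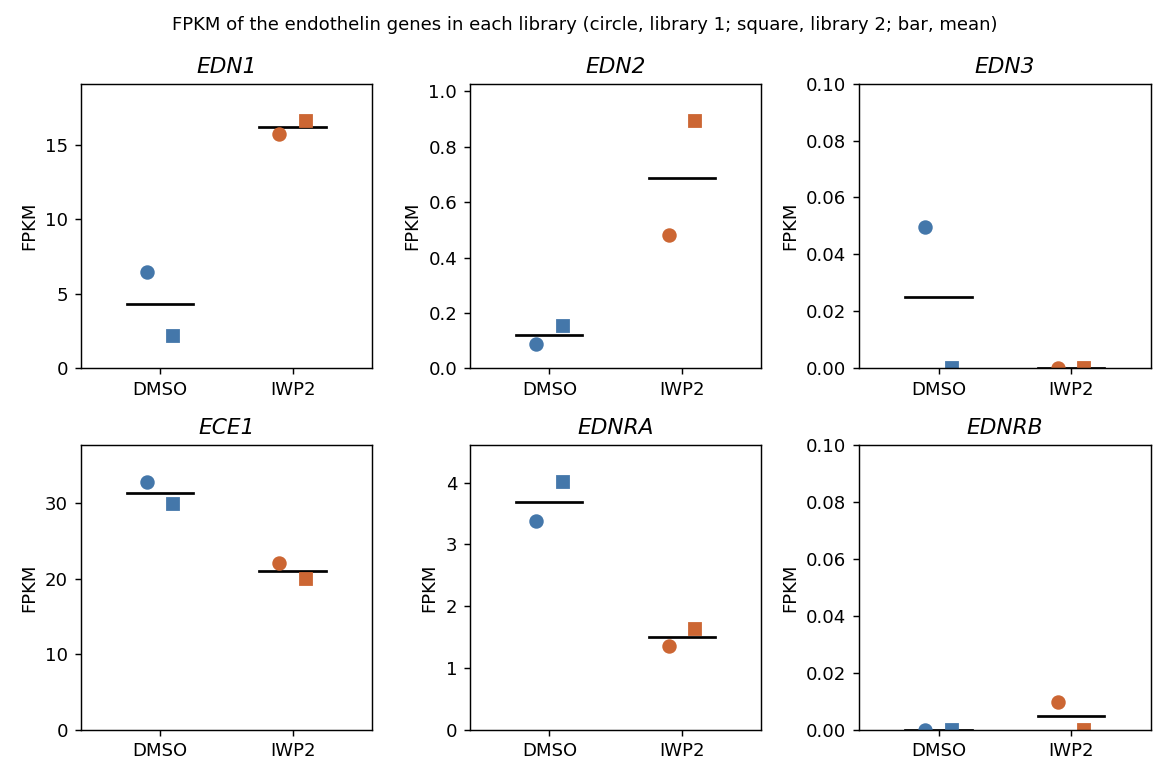
FPKM (vertical axes, linear and starting at 0, with a separate scale for each gene) of EDN1, EDN2, EDN3, ECE1, EDNRA and EDNRB in the DMSO and IWP2 libraries; circles are library 1, squares library 2 and bars the group mean. EDN1 and EDN2 lie higher in both IWP2 libraries, ECE1 and EDNRA lie lower, and EDN3 and EDNRB stay below 0.1 FPKM.

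The spread in EDN1 lay between the DMSO libraries. DMSO library 1 held 2.94 times the EDN1 FPKM of DMSO library 2, a gap of 1.22 on the log2(FPKM + 1) scale, while the IWP2 libraries differed by only 0.08. Over all tested genes the median absolute gap was 0.160 between the DMSO libraries and 0.135 between the IWP2 libraries. A gap at least as wide as that of EDN1, with DMSO library 1 the higher, occurred in 117 tested genes (0.733%), and in 14 of these the IWP2 mean lay above DMSO library 1, as it did for EDN1. All 10 epithelial markers were higher in DMSO library 1 than in DMSO library 2, beside 49.8% of all tested genes. So were 14 of 17 TGF-beta, activin and BMP response genes and 11 of 13 tested genes of other vasoactive peptide systems. In the other direction, only 1 of 11 tested primitive streak and mesoderm markers was higher in DMSO library 1. These lists are named for their uneven counts, and the remaining lists were less uneven. With IWP2, 4 of the 10 epithelial markers rose and 6 were not called, beside 5.86% of all tested genes called higher. Their summed level was 1773 and 1437 FPKM in the DMSO libraries against 2219 and 2363 FPKM with IWP2. Most of that sum in every library was the keratin genes KRT8, KRT18 and KRT19, none of which was called. CDH1 (E-cadherin), whose control libraries were close together, stood at 32.6 and 29.7 FPKM with DMSO and 120.4 and 124.1 FPKM with IWP2. The mitochondrial gene MT-ATP8 also set the DMSO libraries apart, at 33374 FPKM in library 1 and 9279 FPKM in library 2, and the IWP2 libraries 1 and 2 held 26236 and 11660 FPKM. The part of these genes in the EDN1 values was not tested. In such bulk libraries, more cells of a kind and more RNA per cell cannot be told apart.

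EDN2 (ENSG00000127129.9, chr1:41478775-41484673, minus strand) encodes endothelin-2 and was near the limit of what the table records. Its FPKM was 0.0887 and 0.151 with DMSO and 0.483 and 0.894 with IWP2. The groups did not overlap, but all 4 values were below 1 FPKM and the mean of 0.404 FPKM kept EDN2 out of the tested genes. The ratio of mean FPKM was 5.74, whereas the difference was 0.58 on the log2(FPKM + 1) scale and 1.81 with a pseudocount of 0.1 FPKM in place of 1. EDN3 (ENSG00000124205.15, chr20:59300427-59325992, plus strand) encodes endothelin-3 and was listed at 0.0497 FPKM in DMSO library 1 and at 0 in the other 3 libraries, so no fold is given. EDN1 accounted for between 93.5% and 97.9% of the summed FPKM of the ligands in every library, and the sum itself was 6.57 and 2.34 FPKM with DMSO against 16.2 and 17.5 FPKM with IWP2.

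ECE1 (ENSG00000117298.14, chr1:21217247-21345504, minus strand), the membrane metalloprotease that turns big endothelin-1 into the active peptide, went the other way. Its FPKM was 32.8 and 29.9 with DMSO and 22.1 and 19.9 with IWP2. The lowest DMSO value was 1.35 times the highest IWP2 value, so the groups were apart. The means were 31.4 ± 2.05 and 21.0 ± 1.54 FPKM (SD, n = 2 each), or 1.49-fold higher with DMSO, and the difference was -0.56 (SE 0.10) on the log2(FPKM + 1) scale.

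ECE1 belongs to a family of zinc metalloproteases whose active site holds the motif HExxH, and other members of this family also cut endothelins. The coding stretch of that motif is shown for ECE1 and for the 4 family members on the list of processing and breakdown genes that reached the level for testing, with capitals for the histidine and glutamate codons, again from GENCODE 29.
ECE1: CATGAGctgactCAT
ECE2: CATGAGttgacgCAT
ECEL1: CATGAGctgaccCAC
MME: CACGAAatcaccCAT
KEL: CACGAGctgttgCAC
The ECE1 stretch lies in exon 15 of 18 at chr1:21227175-21227189, and that of KEL in exon 16 of 19 at chr7:142943292-142943306. MME (neprilysin), which degrades endothelin-1, fell from 22.5 and 26.9 FPKM to 12.5 and 11.8 FPKM (log2 difference -0.96, SE 0.12, limma adjusted p = 0.010). KEL, the Kell blood group protein that can process big endothelin-3, fell from 12.8 and 12.9 FPKM to 5.65 and 5.64 FPKM (log2 difference -1.06, SE 0.10, limma adjusted p = 0.0056). ECE2, the closest relative of ECE1, had 5.34 and 6.54 FPKM with DMSO and 7.10 and 8.88 FPKM with IWP2 and did not pass the test (log2 difference 0.37, SE 0.16, limma adjusted p = 0.21). ECEL1 had 1.07 and 1.01 FPKM with DMSO and 2.14 and 2.72 FPKM with IWP2 and did not pass either (log2 difference 0.75, SE 0.17, limma adjusted p = 0.052). Differences between these family members were not tested.

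Of the 11 processing and breakdown genes, 9 were tested, of which 1 rose and 2 fell, against 5.86% of all tested genes called higher and 7.39% called lower. The gene that rose was FURIN, a proprotein convertase that makes the first cuts in the precursor, at 41.9 and 36.6 FPKM with DMSO and 57.3 and 54.7 FPKM with IWP2 (log2 difference 0.51, SE 0.10, limma adjusted p = 0.034). The median log2 difference over the 9 genes was -0.03, beside -0.01 over all tested genes. The 3 calls became 1 without DMSO library 1, and 0 without DMSO library 2, IWP2 library 1 or IWP2 library 2.

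EDNRA (ENSG00000151617.15, chr4:147480917-147544954, plus strand), the receptor that prefers endothelin-1, had the higher level of the endothelin receptors in every library. Its FPKM was 3.37 and 4.01 with DMSO and 1.36 and 1.63 with IWP2. The lowest DMSO value was 2.06 times the highest IWP2 value, a distance beyond the gap within either group. The means were 3.69 ± 0.450 and 1.498 ± 0.193 FPKM (SD, n = 2 each), 2.46-fold higher with DMSO, and the difference was -0.91 (SE 0.16) on the log2(FPKM + 1) scale. It was -1.25 with a pseudocount of 0.1 FPKM, and 832 tested genes had a larger fall. EDNRB (ENSG00000136160.14, chr13:77895481-77919768, minus strand) was listed at 0.00985 FPKM in IWP2 library 1 and at 0 in the other 3 libraries, and its antisense gene EDNRB-AS1 was listed at 0 in all 4.

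In total, 3 of the 6 genes entered the test and all 3 were called, EDN1 higher and ECE1 and EDNRA lower, where 13.3% of all tested genes were called in either direction. Because the same contrast chose the set, nothing is read from that count. The groups did not overlap for 4 of the 6 genes, while they did not overlap for 45.9% of all symbols above 0 FPKM in at least 1 library. The EDN1 call was lost with a pseudocount of 0.1 or 0.01 FPKM, without the variance trend, with robust variances and when every gene above 0 FPKM was tested. Of the 3 calls, 1 (EDN1) was made without DMSO library 1, and 0 were made without DMSO library 2, IWP2 library 1 or IWP2 library 2.

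**Figure D2:**
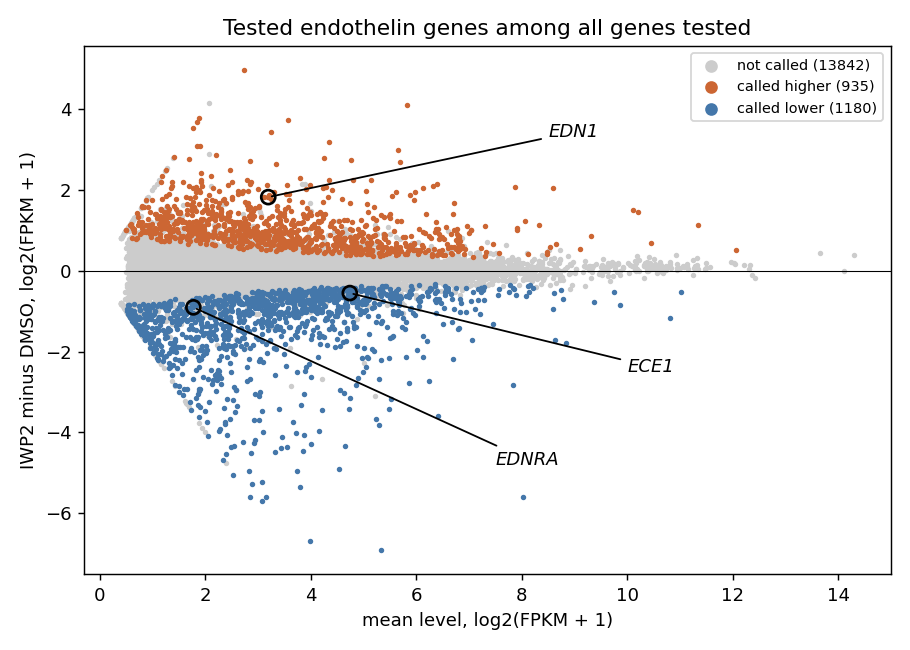
Mean level (horizontal axis, log2(FPKM + 1)) against the difference IWP2 minus DMSO (vertical axis, same scale) for the 15957 tested genes, with called genes in color and EDN1, ECE1 and EDNRA circled. EDN1 lies at 1.82 and EDNRA and ECE1 at -0.91 and -0.56; the 935 genes called higher and 1180 called lower surround them.

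The spacing of the levels within the system differed between conditions, on the FPKM scale, which is per transcript length. With DMSO the order of the means was ECE1, EDN1, EDNRA and EDN2, and EDN1 and EDNRA were not separated, since the EDN1 libraries (2.18 and 6.43) enclosed the EDNRA libraries (3.37 and 4.01). With IWP2 the order was the same but every neighbor was apart. The EDN1 to EDNRA ratio within a library was 1.91 and 0.545 with DMSO and 11.5 and 10.2 with IWP2. The ECE1 to EDN1 ratio was 5.10 and 13.7 with DMSO and 1.41 and 1.20 with IWP2. Ligand transcript was therefore higher relative to both its converting enzyme and its receptor in each IWP2 library than in either DMSO library. Because EDN1 was selected on its rise in these same libraries, these ratios in part restate that rise.

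Endothelin receptors signal through G proteins of several classes to phospholipase C, calcium and protein kinases. Of the 38 genes listed for these steps, 35 were tested, of which 1 rose, 3 fell and 31 were not called, beside 13.3% of all tested genes called, and the median log2 difference was -0.08. SRC, a kinase downstream of many receptors, fell from 57.4 and 66.0 FPKM to 26.2 and 24.6 FPKM (log2 difference -1.25, SE 0.10, limma adjusted p = 0.0036). PLCB4, a phospholipase C isoform, fell from 13.6 and 16.6 FPKM to 7.09 and 6.16 FPKM (log2 difference -1.07, SE 0.14, limma adjusted p = 0.012). The 4 calls became 1 without DMSO library 1 or 2, and 0 without IWP2 library 1 or 2.

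Among 12 genes that switch off G protein-coupled receptors, all of them tested, 2 rose, 1 fell and 9 were not called, beside 5.86% of all tested genes called higher and 7.39% lower, with a median log2 difference of -0.22. RGS5, a regulator of G protein signaling known from pericytes, fell from 70.6 and 61.4 FPKM to 15.5 and 12.4 FPKM (log2 difference -2.17, SE 0.14, limma adjusted p = 0.0017). RGS16 of the same family rose from 29.7 and 22.2 FPKM to 52.9 and 55.2 FPKM (log2 difference 1.05, SE 0.15, limma adjusted p = 0.015). ARRB2, a beta-arrestin that uncouples receptors, rose from 21.8 and 22.8 FPKM to 33.9 and 31.5 FPKM (log2 difference 0.53, SE 0.09, limma adjusted p = 0.024). All 3 calls were made without DMSO library 1, 1 without DMSO library 2, 1 without IWP2 library 1 and 0 without IWP2 library 2.

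A list of 31 transcription factors and cofactors with known roles at EDN1 was tested in full, and 3 rose, 6 fell and 22 were not called, beside 13.3% of all tested genes called, with a median log2 difference of -0.14. JUN, a subunit of AP-1, rose from 11.9 and 12.1 FPKM to 42.4 and 44.2 FPKM (log2 difference 1.77, SE 0.09, limma adjusted p = 0.00092). EPAS1, a hypoxia-inducible factor subunit, rose from 0.997 and 0.970 FPKM to 5.48 and 4.42 FPKM (log2 difference 1.58, SE 0.16, limma adjusted p = 0.0062). Of the GATA factors, 2 went the other way, with GATA6 at 118.6 and 134.5 FPKM against 3.52 and 3.01 FPKM and GATA4 at 62.6 and 76.1 FPKM against 3.41 and 3.54 FPKM. GATA2, also listed, had 14.9 and 22.6 FPKM with DMSO and 11.3 and 9.74 FPKM with IWP2. It was not called (log2 difference -0.76, SE 0.21, limma adjusted p = 0.084). JUN and EPAS1 thus shared the direction of EDN1, and GATA4 and GATA6 did not. JUNB, another AP-1 subunit, fell from 8.90 and 9.22 FPKM to 5.04 and 5.60 FPKM (log2 difference -0.67, SE 0.12, limma adjusted p = 0.026). The other AP-1 subunits listed were not called, nor were HIF1A and ARNT. The part of these factors in the EDN1 level was not tested. The 9 calls became 4 without DMSO library 1, 3 without DMSO library 2, 3 without IWP2 library 1 and 2 without IWP2 library 2.

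The medium held activin A and BMP4, and EDN1 is a known TGF-beta response gene, so 17 response genes of these pathways were set beside it. Of these, 7 rose, 2 fell and 8 were not called, beside 5.86% of all tested genes called higher and 7.39% lower, with a median log2 difference of 0.44. CTGF, a matricellular protein, rose from 15.7 and 10.03 FPKM to 220.5 and 244.3 FPKM (log2 difference 4.10, SE 0.21, limma adjusted p = 0.00098), and its relative CYR61 rose from 20.7 and 13.5 FPKM to 136.4 and 143.4 FPKM (log2 difference 2.99, SE 0.20, limma adjusted p = 0.0020). LEFTY1, a Nodal antagonist induced by activin, fell from 97.0 and 57.1 FPKM to 13.6 and 13.3 FPKM (log2 difference -2.39, SE 0.25, limma adjusted p = 0.0064). The list therefore held genes of both directions. Its 9 calls became 6 without DMSO library 1 or 2, and 0 without IWP2 library 1 or 2.

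Other vasoactive peptide systems were compared as the nearest functional relatives. Of 34 genes listed, only 13 reached the level for testing, of which 5 rose, 1 fell and 7 were not called, beside 5.86% and 7.39% of all tested genes, with a median log2 difference of 0.52. NPPB, the precursor of B-type natriuretic peptide, rose from 19.5 and 19.2 FPKM to 126.2 and 135.4 FPKM (log2 difference 2.69, SE 0.08, limma adjusted p = 0.00039). ADM, the precursor of the vasodilator adrenomedullin, rose from 21.8 and 10.6 FPKM to 72.2 and 79.7 FPKM (log2 difference 2.24, SE 0.32, limma adjusted p = 0.015), and like EDN1 was higher in DMSO library 1 than in DMSO library 2. PTGIS (prostacyclin synthase) rose from 5.62 and 6.50 FPKM to 15.3 and 14.7 FPKM, and NPR1, a natriuretic peptide receptor, rose from 1.25 and 1.16 FPKM to 3.14 and 2.76 FPKM. The 6 calls became 3 without DMSO library 1 or 2, and 1 without IWP2 library 1 or 2.

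**Figure D3:**
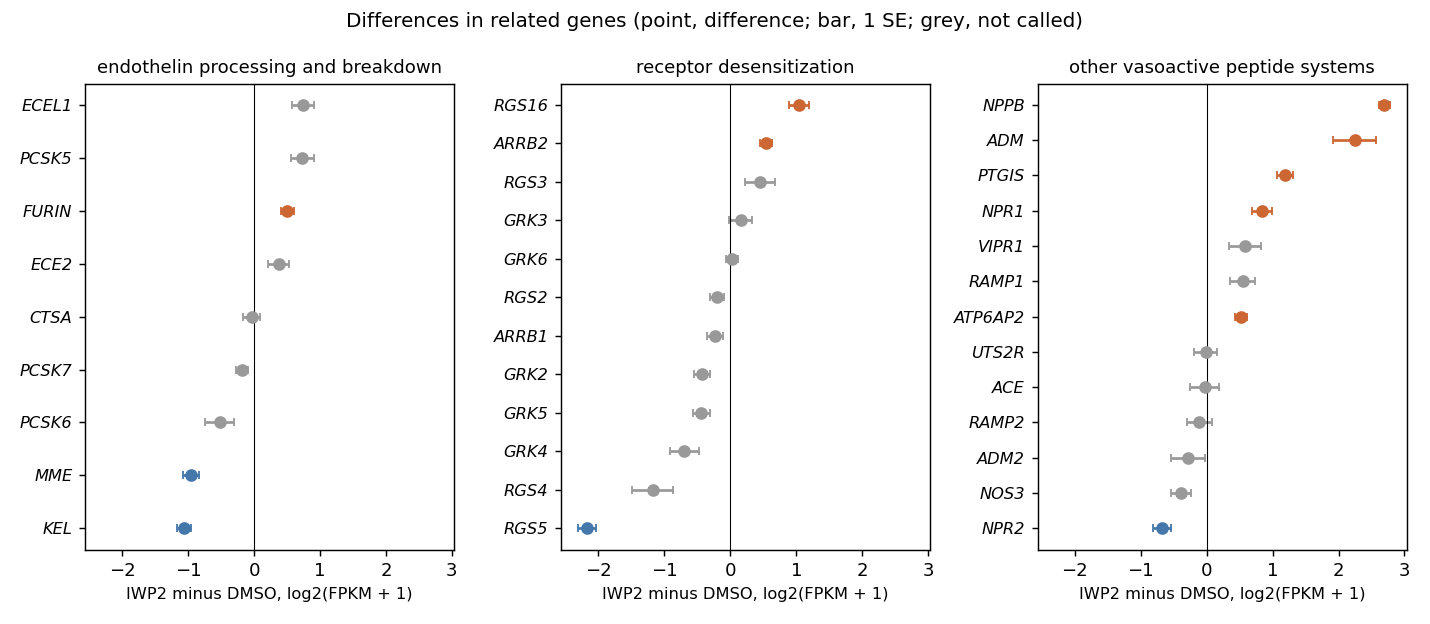
Difference IWP2 minus DMSO (horizontal axis, log2(FPKM + 1)) for the tested genes that process or degrade endothelins, that desensitize their receptors, and that belong to other vasoactive peptide systems; points are differences, bars 1 standard error, orange genes called higher, blue genes called lower and grey genes not called. KEL, MME, RGS5 and NPR2 lie to the left, and NPPB at 2.69 and ADM at 2.24 lie farthest to the right.

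Genes that depend on endothelin signaling in the pharyngeal arches and neural crest differed in direction. Of 15 listed, 12 were tested, of which 1 rose, 3 fell and 8 were not called, beside 5.86% of all tested genes called higher and 7.39% lower, with a median log2 difference of 0.25. HAND2, an arch gene downstream of EDNRA in the embryo, fell from 3.38 and 4.35 FPKM to 0.0785 and 0.127 FPKM (log2 difference -2.13, SE 0.18, limma adjusted p = 0.0040). DLX6, an arch homeobox gene, rose from 1.94 and 1.28 FPKM to 3.86 and 3.94 FPKM (log2 difference 0.92, SE 0.18, limma adjusted p = 0.034). GSC, which is also on the primitive streak list, and MSX1 fell from 18.8 and 31.4 FPKM to 0.118 and 0.368 FPKM and from 36.3 and 29.6 FPKM to 1.04 and 1.23 FPKM. The 4 calls became 3 without DMSO library 1 or 2, and 1 without IWP2 library 1 or 2.

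Marker lists showed what else differed between the groups in which EDN1 was measured. Of 11 tested primitive streak and mesoderm markers all 11 fell, beside 7.39% of all tested genes called lower, and their summed level was 1161 and 1486 FPKM with DMSO and 150.5 and 173.0 FPKM with IWP2. For this and the next lists, 5.86% of all tested genes were called higher and 7.39% lower. Of 10 pluripotency markers 6 rose and 1 fell. Of 10 tested amnion and trophoblast markers 4 rose, 1 fell and 5 were not called. Their sums were 126.7 and 115.3 FPKM with DMSO against 170.7 and 177.3 FPKM with IWP2. Of 12 endothelial markers 7 were tested, of which 3 fell, 0 rose and 4 were not called. The summed level of the endothelial list was 70.9 and 74.2 FPKM with DMSO and 45.1 and 43.7 FPKM with IWP2. Most of it was KDR (53.2, 60.4, 38.6 and 35.7 FPKM), which mesoderm also expresses. PECAM1 and CDH5, the defining endothelial adhesion genes, were at most 0.447 and 0.492 FPKM in any library. Of 7 tested definitive endoderm markers 5 fell, and SOX17 and FOXA3 were not called. The summed level of that list was 1935 and 2317 FPKM with DMSO and 138.0 and 150.3 FPKM with IWP2. Most of the DMSO sums was CER1 (1612 and 2048 FPKM, against 38.6 and 34.2 FPKM with IWP2). SOX17 stood at 154.7 and 104.2 FPKM with DMSO and 79.7 and 94.9 FPKM with IWP2. Of 6 tested neural crest and neural markers 2 rose and 2 fell. The part of these marker groups in the endothelin differences was not tested.

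The genes most like EDN1 were found by the distance between log2(FPKM + 1) profiles, each centered on its own mean, over the 4 libraries. With so few libraries this likeness is a description. The nearest was AC106864.2 (ENSG00000250046.3), at 3.89 and 1.27 FPKM with DMSO and 10.8 and 12.5 FPKM with IWP2 (distance 0.155). FOXI3, a forkhead factor, had 9.95 and 4.63 FPKM with DMSO and 25.5 and 23.6 FPKM with IWP2 (distance 0.256). NPDC1, LINC00545 and MARVELD3 followed at 0.268, 0.300 and 0.314. In all 5 of these genes DMSO library 1 was higher than DMSO library 2 and both IWP2 libraries were higher still. That order was fixed by choosing genes near the EDN1 profile, so it is no separate result. By the same measure, chosen after the values were seen, the nearest gene to EDNRA was CSF3R (1.30, 1.70, 0.253 and 0.393 FPKM, distance 0.028) and the nearest to ECE1 was SEC31A (73.5, 66.9, 48.8 and 44.4 FPKM, distance 0.025).

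**Figure D4:**
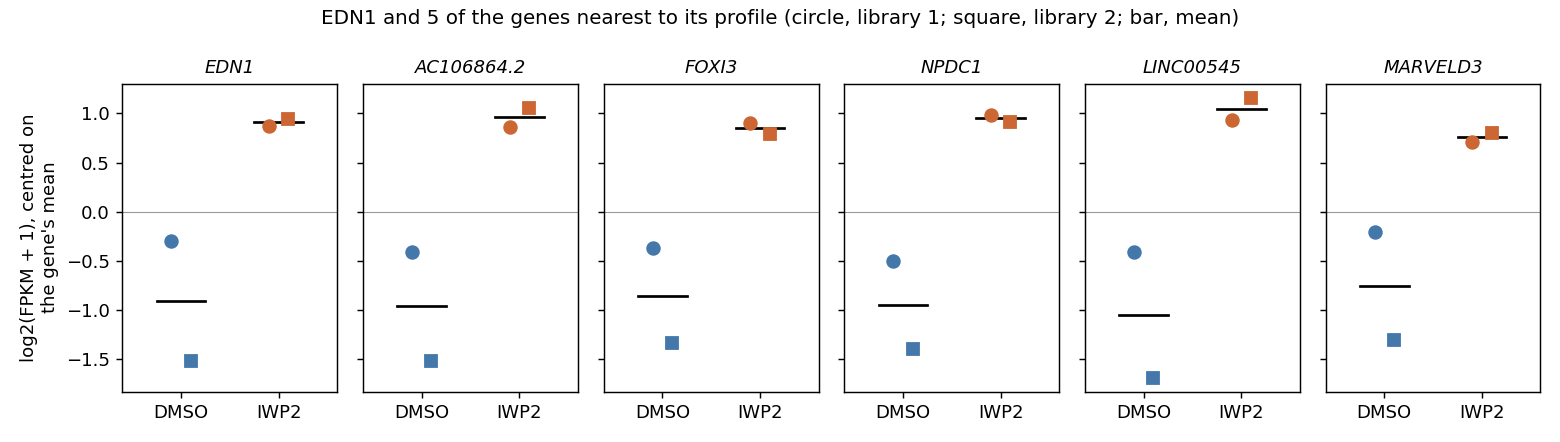
Log2(FPKM + 1) centered on each gene's mean (vertical axis) in the DMSO and IWP2 libraries for EDN1 and 5 of its nearest genes; circles are library 1, squares library 2 and bars the group mean. The gap between the DMSO libraries, 1.22 for EDN1, has the same direction in all 5 genes. The IWP2 libraries lie close together above them. Both features follow from choosing genes by nearness to the EDN1 profile.

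None of the nearest tested genes on either side of EDN1, ECE1 and EDNRA was called. HIVEP1, 125.4 kb before EDN1, had 6.62 and 4.75 FPKM with DMSO and 5.25 and 4.66 FPKM with IWP2 (log2 difference -0.15, SE 0.18, limma adjusted p = 0.63). EIF4G3, 40.4 kb from ECE1, and TMEM184C, 72.4 kb from EDNRA, were not called either (log2 differences -0.05 and 0.30). SLC10A7, on the other side of EDNRA at 959 kb, had 2.54 and 2.31 FPKM with DMSO and 1.36 and 1.38 FPKM with IWP2, so its groups were apart in the direction of EDNRA, but it did not pass the test (log2 difference -0.53, SE 0.15, limma adjusted p = 0.089). These neighbors were chosen after the data were seen. RefSeq promoter windows (GRCh38.p14, 250 bases before the start) were searched on both strands for GATAA (GATA factors), TGANTCA (AP-1), CAGAC (SMAD) and CTTTG (TCF/LEF). None of these motifs contains another, and overlaps between neighboring matches were not counted. The EDN1 window held 2 CAGAC and 1 CTTTG and no match of the others, but it ends at a RefSeq start 2344 bases before the EDN1 start in the expression table. The EDNRA window held 2 of each of the same motifs, the ECE1 window 1 CAGAC, and the EDNRB window 2 GATAA and 1 CAGAC. The EDN2 window held no match and EDN3 was not analysed here. The RefSeq starts of EDNRA and EDNRB lie 180 and 86 bases inside the genes of the expression table, so these windows reach into them. Of all 35116 windows, 38.0% held CAGAC, 42.1% CTTTG, 20.4% GATAA and 6.57% TGANTCA.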

How the data were processed

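Total RNA of 4 libraries (2 DMSO, 2 IWP2) had been sequenced after Illumina TruSeq preparation. The authors deposited 1 table of FPKM values for 58365 rows. Per the labels, BWA, Bowtie and RSEM and the build hg19 were used, with versions not given in the sources used here, whereas 99.8% of the 55723 rows whose identifiers GENCODE 29 holds carry its GRCh38 positions, and positions are given on GRCh38. The table names no unit, and FPKM was inferred from sums that differ between libraries. Columns without IWP2 were taken as the DMSO group by their sign and are numbered as in the column names.

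Of rows sharing a symbol the one with the highest mean was kept (56595 symbols). Genes with a mean of at least 0.5 FPKM (15957) were fitted as log2(FPKM + 1) in limma 3.58.1 (R 4.3.3) with a mean-variance trend, no replicate block and Benjamini-Hochberg adjustment. With 2 against 2 libraries an exact permutation test cannot give a two-sided p below 0.333. The script was tested on simulated data with 200 genes changed. It recovered 0% of them at a log2 difference of 1, 81% at 2 and 94% at 3, with 0, 10 and 4 false calls. The data differ from that setting, with 2115 called genes, some at differences below 1 (FURIN, 0.51). These percentages therefore do not give the share recovered in the real fit. A gene that was not called may still differ. The members and the 8 gene and 7 marker lists were chosen with earlier results of these data known. Named genes were all members, at most 4 called genes of largest difference per list (2 for G proteins and markers), and the 6 genes nearest to EDN1, of which 1 is not reported here. ECE2, ECEL1, JUNB, HIF1A, ARNT, MT-ATP8, KDR, PECAM1, CDH5, NPR2 and the neighbors lie outside that rule and were chosen after their values were seen. The same holds for GATA2, SOX17, FOXA3, KRT8, KRT18 and KRT19. Alternatives covered the pseudocount, floor, scaling, variance model, replicate block, shared symbols and leaving out each library.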

Additional observations from a re-analysis of the deposited data

How the results depend on the processing

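The EDN1 difference (1.82 on the log2 scale) was 1.21 to 2.43 with 1 library left out and 1.82 to 2.10 otherwise. Over all alternatives EDN2 ranged from 0.41 to 2.40, ECE1 from -0.63 to -0.48 and EDNRA from -1.30 to -0.81. The groups of these genes do not overlap, so leaving out a library could not turn a sign. The number of called genes, 2115, was 384 when every gene above 0 FPKM was tested, which adds genes near 0 to the adjustment, and 107 to 731 with 1 library left out, which leaves a lone library assumed to vary like the others. The called genes of the 8 lists, 51 in the main analysis, numbered 21 and 9 to 29 in these fits. Of the 3 calls among the endothelin genes, 0 were made when every gene was tested, 1 (EDNRA) without the variance trend, and 2 (ECE1 and EDNRA) with a pseudocount of 0.1 or 0.01 FPKM or robust variances; the cause was not tested. With the replicate number as a block (replicate block) 1922 genes were called, all 3 endothelin genes among them. The numbers are not stated to mark a shared culture, and the deviations of same-numbered libraries correlated at 0.138 over genes, while MT-ATP8 was higher in both libraries numbered 1. Rescaling moved the median of all genes to 0.001 or -0.04. The unknown depth limits EDN2, EDN3 and EDNRB, whose values near 0 FPKM allow no statement of absence.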
